A study of Mus musculus with 28 samples.

Results

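The MHC class II genes described here were the invariant chain gene Cd74, the class II chain genes H2-Aa, H2-Ab1 and H2-Eb1, the peptide exchange genes H2-DMa and H2-DMb1, and the transactivator gene Ciita. They were chosen by name for their place in the class II pathway and were 7 of the 25251 genes in the expression table. RNA had been sequenced from 3 cell populations of mouse bone marrow (BM): endothelial cells (ECs, sorted as CD45-Ter119-CD31+), mesenchymal stromal cells (MSCs, CD45-Ter119-CD31-CD166-Sca1+) and mononuclear cells (MNCs). The paper names bone lining cells as the source, which its methods free from bone fragments with collagenase. Whether the MNCs were prepared in the same way as the ECs and MSCs is not clear from its wording. The mice were of the C57 BL6 strain, 8 to 10 wk old, and either Flt3+/+ or Flt3 ITD/ITD. The latter carry, on both alleles in the germ line and therefore in all their cells, a knocked-in internal tandem duplication (ITD) of the receptor tyrosine kinase gene Flt3, and have a myeloproliferative disease. ECs and MSCs gave 5 libraries per genotype and MNCs gave 4, 28 in all, each from a single mouse. With 4 to 5 mice per genotype in the study, libraries of different populations may share a mouse, but the labels do not tie them together, and the comparisons of populations took them as independent. An EC or MSC library held the cDNA of 100 sorted cells and an MNC library that of 200.

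MHC class II molecules are pairs of an alpha and a beta chain that show peptides from endosomes to CD4+ T cells. H2-Aa and H2-Ab1 encode the chains of I-A, and H2-Eb1 the beta chain of I-E, whose alpha chain gene is defective in C57BL/6 mice. The invariant chain (Cd74) fills the groove of new class II molecules and takes them to endosomes, where H2-DM, made from H2-DMa and H2-DMb1, removes its last fragment and lets peptides bind, and H2-O (H2-Oa and H2-Ob) restrains H2-DM. Ciita recruits the transcription machinery to factors already bound at these genes' promoters: RFX on the X box and NF-Y on the Y box. Dendritic cells, B cells and macrophages express the pathway constitutively, while endothelial and stromal cells are known to do so mainly after interferon gamma.

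In the coordinates of GRCm38 (mm10), 5 of the members lie in the MHC on chromosome 17: H2-DMa at chr17:34119541-34139101, H2-DMb1 at chr17:34153072-34160230, H2-Ab1 at chr17:34257689-34269419 and H2-Eb1 at chr17:34305867-34316674 on the plus strand, and H2-Aa at chr17:34282744-34287823 on the minus strand. Ciita is at chr16:10480059-10528418 on the plus strand. Promoter windows of RefSeq (GRCm38.p6, 250 bases before to 50 after a transcript start) were found for 4 members, H2-Aa, H2-Eb1, H2-DMa and H2-DMb1, and for the other class II genes H2-Ob, H2-Oa, H2-DMb2 and H2-Eb2. Cd74, H2-Ab1 and Ciita had no entry. Stretches of 100 bases are shown for 5 genes, because they hold the boxes that the genes share and because H2-DMb1 and its near copy H2-DMb2 can be compared in them. Capitals mark a match to the Y box core ATTGG and, before it, to an X box core AACNNATG. Both were searched on both strands with letters chosen after these sequences had been read.
H2-Eb1: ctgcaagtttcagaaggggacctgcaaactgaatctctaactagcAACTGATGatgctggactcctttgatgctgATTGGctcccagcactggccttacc
H2-DMb1: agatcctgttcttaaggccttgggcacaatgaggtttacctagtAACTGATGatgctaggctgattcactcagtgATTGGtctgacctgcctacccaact
H2-DMb2: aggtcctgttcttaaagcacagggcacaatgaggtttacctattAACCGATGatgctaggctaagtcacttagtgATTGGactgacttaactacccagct
H2-Ob: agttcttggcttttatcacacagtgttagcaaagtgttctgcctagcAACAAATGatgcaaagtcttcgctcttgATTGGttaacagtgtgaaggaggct
H2-Aa: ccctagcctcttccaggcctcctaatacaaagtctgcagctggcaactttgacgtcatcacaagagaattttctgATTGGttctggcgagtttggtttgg
The stretches are chr17:34305733-34305832 (H2-Eb1), chr17:34153055-34153154 (H2-DMb1), chr17:34145084-34145183 (H2-DMb2) and chr17:34238773-34238872 (H2-Ob), read on the plus strand, and chr17:34287847-34287946 (H2-Aa), read on the minus strand. The X core was followed on the same strand by the Y core after 22 bases in H2-Eb1, 23 in H2-DMb1, 23 in H2-DMb2 and 20 in H2-Ob. H2-Eb2, not shown, held the same arrangement with 22 bases between the cores. Of 32851 RefSeq windows of this length, 0.18% held an X core 8 to 30 bases before a Y core on the same strand, 8.86% held an X core and 37.4% held a Y core, on either strand. The letters of the X core were not found in the windows of H2-Aa, H2-DMa and H2-Oa, and the Y core was found in all 8 genes. In H2-DMa it lay 198 bases before 1 of its 2 annotated starts. Such matches describe letters and were not tested for binding.

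Total counts per library ranged from 6377013 to 33880743. All 10 EC libraries held the endothelial cadherin gene Cdh5 (4265 to 30984 counts, against 0 to 26 in MSCs), all 10 MSC libraries held Dcn and Pdgfra (491239 to 1575802 and 6387 to 21693 counts), and all 8 MNC libraries held the CD45 gene Ptprc (9008 to 15231 counts). Ptprc was at 0 to 3 counts in the sorted ECs and MSCs except in Flt3 ITD/ITD EC 2 (778 counts), Flt3 ITD/ITD MSC 5 (32) and Flt3+/+ MSC 5 (17). The former 2 also had the highest summed RPKM of 12 neutrophil genes in their populations (30070.0 and 6313). The biological coefficient of variation was 0.984 for EC, 0.871 for MSC and 0.484 for MNC libraries, so that differences had to be larger to pass in the sorted stromal populations. Values below are RPKM, reads normalised to transcript length and library depth, unless called counts, and libraries are given in the order of their replicate numbers. In such bulk samples, fewer cells of a type and less RNA per cell cannot be told apart.

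The class II genes other than Ciita had their highest means in MNCs, were lower and very uneven in ECs, and exceeded 3 counts in at most 4 of 10 libraries in MSCs. Ciita had means of 0.926 and 0.755 in Flt3+/+ ECs and MNCs, and of 0.292 and 4.005 in Flt3 ITD/ITD ECs and MNCs. In Flt3+/+ MNCs the order of the mean RPKM was Cd74 (1197 ± 716.6, SD, n = 4), H2-Aa (402 ± 253), H2-Ab1 (281 ± 145), H2-DMa (96.5 ± 31.6), H2-Eb1 (91.95 ± 54.4), H2-DMb1 (40.7 ± 12.3) and Ciita (0.755 ± 0.519). H2-DMa and H2-Eb1, neighbours in that order, differed by less than their spread, as did H2-Aa and H2-Ab1, whose products form I-A. Cd74 lies outside the MHC, at chr18:60803848-60812652 on the plus strand. All 7 members exceeded 3 counts in all 8 MNC libraries. Within an MNC library Cd74 and the chain genes kept similar proportions: Cd74 was 2.57 to 4.24 times H2-Aa, H2-Aa was 1.06 to 1.81 times H2-Ab1, and H2-Aa was 3.58 to 5.18 times H2-Eb1. The exchange factor genes varied more, with H2-DMa at 1.36 to 3.45 times H2-DMb1 and Cd74 at 8.12 to 29.8 times H2-DMa.

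**Figure D1:**
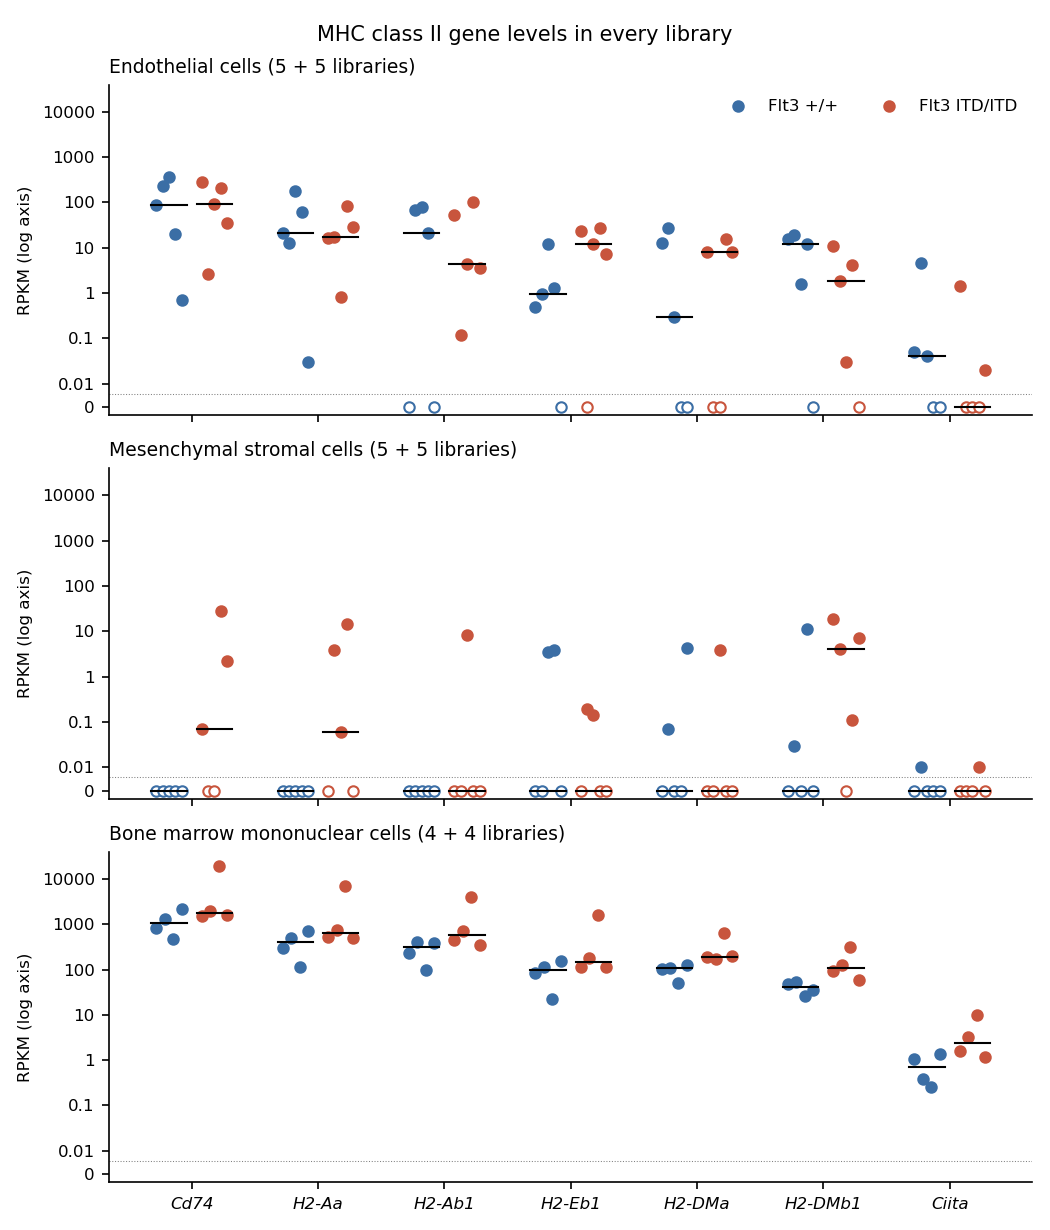
RPKM of each member (log scale, with 0 marked apart) in every EC, MSC and MNC library, colored by genotype, with lines at the group medians. MNC libraries form tight columns except for 1 Flt3 ITD/ITD library above the rest (Cd74 at 18913), EC values spread over orders of magnitude, and most MSC values are 0.

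Compared with MNCs, over both genotypes, 6 of the 7 members were lower in ECs (edgeR quasi-likelihood test, adjusted p below 0.1 and at least a doubling of the mean RPKM), where 44.9% of the 16897 genes tested passed and 21.9% passed as lower. The log2 fold changes of the called members were -4.50 ± 1.26 (SE) for Cd74 (adjusted p = 0.00574), -4.69 ± 1.22 for H2-Aa, -4.34 ± 1.37 for H2-Ab1, -5.19 ± 1.21 for H2-Eb1, -4.70 ± 1.49 for H2-DMa and -3.91 ± 1.36 for H2-DMb1. Ciita differed by -1.64 ± 1.26 (adjusted p = 0.305) and was not called. Without Flt3+/+ EC 2 or without Flt3 ITD/ITD EC 1, which held nearly all EC counts of Ciita, it was called as well, at -5.10 and -4.41. Without Flt3 ITD/ITD MNC 3, described below, the median of the members moved from -4.50 to -3.61, against 0.00 over all genes. Only 3 members had all EC libraries below all MNC libraries, in a table where 9.39% of genes did so.

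Compared with MNCs, all 7 members were lower in MSCs, where 44.1% of genes passed and 22% passed as lower. The log2 fold change was -4.27 ± 1.38 for H2-DMb1 (adjusted p = 0.0134), the smallest of the 7, -7.57 ± 1.69 for H2-DMa and -9.21 ± 1.47 for H2-Eb1. For all 7 members the MSC libraries lay below the MNC libraries, as for 12.2% of genes. In Flt3+/+ MSCs, Cd74, H2-Aa and H2-Ab1 were at 0 counts in all 5 libraries, whose depth puts the floor of 3 counts at 0.0890 to 0.244 CPM (counts scaled to library depth) in a library. Against that floor, the mean CPM of Flt3+/+ MNCs was at least 12714-fold higher for Cd74, at least 3365-fold higher for H2-Aa and at least 2130.0-fold higher for H2-Ab1. Flt3+/+ ECs stood in between in the mean, at least 1459-fold, 462-fold and 255-fold above the same floor, or 880-fold, 199-fold and 169-fold without Flt3+/+ EC 3. Of the 5 Flt3+/+ EC libraries, 5, 4 and 3 exceeded 3 counts of these genes. These bounds cover counting error only, since reads amplified by PCR are not independent molecules.

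Compared with MSCs, 5 of 7 members were higher in ECs, where 32.6% of genes passed and 16.1% passed as higher. These were Cd74 (adjusted p = 0.000206), H2-Aa, H2-Ab1, Ciita (log2 fold change 7.40 ± 1.65) and H2-Eb1 (4.02 ± 1.19, adjusted p = 0.0105). H2-DMa (2.87 ± 1.36, adjusted p = 0.110) and H2-DMb1 (0.36 ± 1.20, adjusted p = 0.871) were not called. H2-DMa passed when any 1 of 7 libraries was left out, at 5.43 without Flt3+/+ MSC 5 and 6.85 without Flt3 ITD/ITD MSC 3, the libraries that held almost all its MSC counts. H2-DMb1 passed without Flt3+/+ MSC 4 (4.14) and turned to -0.18 without Flt3 ITD/ITD EC 1. No member had all EC libraries above all MSC libraries, against 8.36% of genes that did not overlap in either direction.

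In ECs, Cd74 and H2-Aa varied between mice within each genotype by more than their means differed between genotypes. Cd74 was at 87.9, 224, 359, 20.4 and 0.70 in Flt3+/+ ECs, and at 277, 2.67, 93.2, 205 and 34.6 in Flt3 ITD/ITD ECs. H2-Aa was at 20.8, 12.9, 182, 62.3 and 0.030 in the former and at 15.97, 17.4, 0.83, 83.1 and 28.3 in the latter. The libraries of both genotypes overlapped throughout, with Flt3+/+ EC 3 highest for both genes and Flt3+/+ EC 5 lowest. Flt3+/+ EC 5 was the deepest library of the series (33880743 counts) and held 32 counts of all 7 members together, 31 of them Cd74.

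H2-Ab1, the I-A beta chain gene, was at 0, 68.95, 81.1, 21.2 and 0 in Flt3+/+ ECs and at 52.6, 0.12, 4.27, 103 and 3.5 in Flt3 ITD/ITD ECs. H2-Eb1 was at 0.49, 0.96, 12.2, 1.32 and 0 against 22.9, 0, 11.9, 27.2 and 7.23. For H2-Eb1, 3 Flt3 ITD/ITD libraries reached the level of the highest Flt3+/+ library or lay close to it, and the groups still overlapped. The exchange factor genes were patchier: H2-DMa was at 12.7, 27.2, 0.29, 0 and 0 against 8.22, 0, 0, 15.8 and 7.91. H2-DMb1 was at 15.4, 19.0, 1.62, 12.3 and 0 in Flt3+/+ ECs and at 10.7, 1.88, 0.030, 4.11 and 0 in Flt3 ITD/ITD ECs. Ciita exceeded 3 counts in only 2 EC libraries, Flt3+/+ EC 2 (4.54) and Flt3 ITD/ITD EC 1 (1.44), and these were also the only EC libraries in which all 7 members exceeded 3 counts.

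The proportions of the members varied between EC libraries. Over the 9 EC libraries with more than 3 counts of both genes, Cd74 ranged from 0.154 to 112 times H2-Aa. The ratio was 0.154 in Flt3 ITD/ITD EC 2 and 112 in Flt3 ITD/ITD EC 3. H2-Aa ranged from 0.187 to 8.09 times H2-Ab1 over 7 EC libraries, a spread of 43.2 times against 1.70 times over the 8 MNC libraries. Across the 21 pairs of members, the median Pearson correlation of log2(RPKM + 1) was 0.431 over the 10 EC libraries (lowest -0.11, highest 0.764) and 0.941 over the 8 MNC libraries (0.839 without Flt3 ITD/ITD MNC 3). These are descriptions over libraries that share depth and, in ECs, an input of 100 cells.

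None of the 7 members was called between the genotypes in ECs, where 0.0081% of 12351 genes were called, 616 genes had an unadjusted p under 0.05 and the members' p were all above that. The log2 fold changes of Flt3 ITD/ITD over Flt3+/+ ECs were -0.20 ± 1.27 for Cd74, -0.93 ± 1.40 for H2-Aa, -0.05 ± 1.87 for H2-Ab1, 2.20 ± 1.73 for H2-Eb1, -0.33 ± 2.17 for H2-DMa and -1.53 ± 1.76 for H2-DMb1 (edgeR adjusted p = 0.9998 for all 6). Ciita did not pass the low-count filter and had -1.92 ± 2.49 without it (adjusted p = 0.869). DESeq2 (1.67% of genes called) and the edgeR exact test (0.13%) called no member either. The signs of Cd74, H2-Aa, H2-Ab1, H2-DMa and Ciita turned when single libraries were left out, and standard errors of 1.27 to 2.49 log2 units mean that changes of that size were not detectable. No member had groups that did not overlap, against 1.14% of genes.

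Transcripts of blood cells were read beside these values. Of the EC libraries, Flt3 ITD/ITD EC 2, with 778 counts of Ptprc, had the lowest Cd74 of its genotype. Its 12 neutrophil genes summed to 30070.0 RPKM, its 17 B cell genes to 135 and its 14 dendritic cell genes to 150, the last 2 sums within the range of the other ECs. Flt3+/+ EC 1 had the next highest neutrophil sum of the ECs (1321). Its 7 erythroid genes had the highest sum of the ECs (2929, against 1695 in Flt3 ITD/ITD EC 2). The highest EC values of Cd74 and H2-Aa were in Flt3+/+ EC 3, where Ptprc was at 3 counts or fewer. The B cell gene Cd79b was at 0 or 1 count in all EC libraries. Cd79a was at 3 counts or fewer except in Flt3 ITD/ITD EC 1 (29 counts) and EC 4 (124 counts). These were the 2 highest libraries of their genotype for Cd74, H2-Ab1, H2-Eb1, H2-DMa and H2-DMb1, but not for H2-Aa and Ciita. The macrophage gene Csf1r was at 0 to 3 counts and the dendritic cell genes Cd209a at 0 to 2 and Itgax at 0 to 10. Summed over 13 genes of leukocytes in general, RPKM was 39.4 to 174 in Flt3+/+ ECs and 66.9 to 845 in Flt3 ITD/ITD ECs, against 10508 to 15748 in MNCs. The 17 B cell genes summed to 58.5 to 192 in Flt3+/+ ECs and 59.9 to 135 in Flt3 ITD/ITD ECs, against 1002 to 1952 and 421 to 1210 in MNCs. The 14 dendritic cell genes summed to 159 to 238 and 114 to 229 in ECs, against 188 to 449 and 446 to 2570 in MNCs. Their EC sums thus overlapped those of Flt3+/+ MNCs. Gene by gene, 11 of the 14 were called lower in ECs than in MNCs and 1 higher (median log2 fold change -5.77). Of the 17 B cell genes, 14 were called lower and 1 higher (median -7.51), where 21.9% of all genes passed as lower and 23% as higher. The part of such cells in the EC values was not tested.

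**Figure D2:**
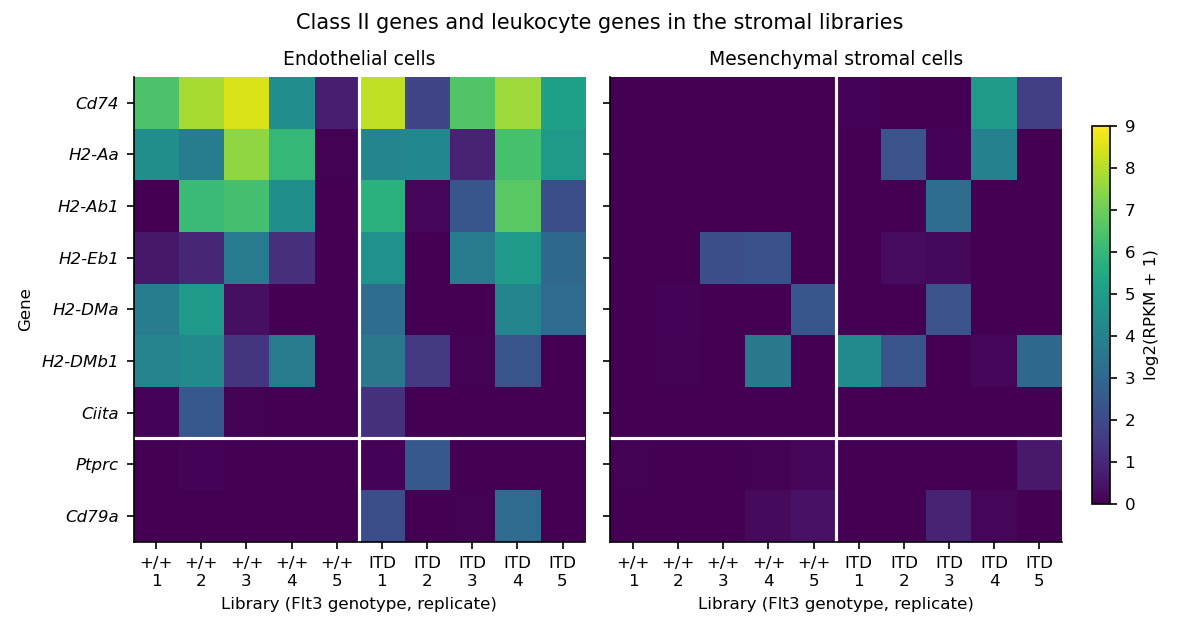
log2(RPKM + 1) of the 7 members, Ptprc and Cd79a in each of the 10 EC and 10 MSC libraries (columns, by genotype and replicate). Members appear in most EC libraries but not together in the same proportions, Flt3+/+ EC 5 is nearly empty, and MSC libraries show isolated members, with Cd74 in Flt3 ITD/ITD MSC 4 as the highest value (28.4 RPKM).

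In MSCs, class II transcripts were found in few libraries, with different members in different libraries. Cd74 was at 0 counts in all 5 Flt3+/+ libraries and at 3, 0, 0, 948 and 31 counts in Flt3 ITD/ITD MSCs. H2-Aa was at 0 in all Flt3+/+ libraries and at 0, 109, 2, 383 and 0 counts in the Flt3 ITD/ITD libraries. H2-Ab1 was found only in Flt3 ITD/ITD MSC 3 (259 counts). Thus Flt3 ITD/ITD MSC 4 held Cd74 and H2-Aa but no H2-Ab1, the partner chain of H2-Aa, and Flt3 ITD/ITD MSC 3 held H2-Ab1 with 2 counts of H2-Aa and none of Cd74.

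The remaining members were found in both genotypes. H2-Eb1 was at 0, 0, 162, 168 and 0 counts in Flt3+/+ and 0, 8, 7, 0 and 0 in Flt3 ITD/ITD MSCs. H2-DMa had 239 counts in Flt3+/+ MSC 5 and 217 in Flt3 ITD/ITD MSC 3, and 0 to 4 elsewhere. H2-DMb1 had 388 counts in Flt3+/+ MSC 4, and 657, 125, 0, 3 and 88 in the Flt3 ITD/ITD libraries. H2-Eb1 and H2-DMb1 each exceeded 3 counts in 4 of 10 MSC libraries, more than any other member. Ciita was never above 1 count in MSCs. From 0 to 3 members exceeded 3 counts in an MSC library, against 1 to 7 in an EC library.

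No member passed the low-count filter of the genotype comparison in MSCs, in which 0.0295% of 13574 genes were called. Without the filter none was called. Cd74, H2-Aa and H2-Ab1 had unadjusted p of 0.0129, 0.0118 and 0.0317 (adjusted p = 0.598 for each by edgeR), and, against the floor of 3 counts per library, Flt3 ITD/ITD MSCs were at least 64.7-fold, 30.8-fold and 12.4-fold higher in mean CPM. Each of these means rested on 1 or 2 libraries. DESeq2 called H2-Aa (adjusted p = 0.0957), where it called 0.986% of genes, and the edgeR exact test (0.147%), run on the members without the filter, called none. The log2 fold changes of H2-Eb1 (-4.31 ± 2.26), H2-DMa (-0.10 ± 2.42) and H2-DMb1 (1.45 ± 2.18) had adjusted p of 0.627 and above, and that of H2-DMa went from -8.17 without Flt3 ITD/ITD MSC 3 to 5.17 without Flt3+/+ MSC 5. No member had groups that did not overlap, against 0.914% of genes. Ptprc was at 1 count in Flt3 ITD/ITD MSC 4, which had the most Cd74, and Flt3 ITD/ITD MSC 3, which had H2-Ab1, also held 103 counts of Itgax and 39 of Cd79a. The leukocyte genes summed to 32.8 to 236 RPKM in Flt3+/+ and 40.2 to 547 in Flt3 ITD/ITD MSCs, the B cell genes to 57.1 to 120 and 99.1 to 162, and the dendritic cell genes to 25.8 to 48.95 and 28.3 to 88.1. Their part in the MSC values was not tested.

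In MNCs all 7 members were higher in the mean of Flt3 ITD/ITD mice. None passed the edgeR quasi-likelihood test, while DESeq2 called 3 and the edgeR exact test 1. Cd74 was at 844, 1323, 482 and 2140.0 in Flt3+/+ MNCs and at 1547, 1937, 18913 and 1629 in Flt3 ITD/ITD MNCs. Flt3 ITD/ITD MNC 3 lay far above the other 7 libraries, while the other 3 Flt3 ITD/ITD libraries lay below the highest Flt3+/+ library, so that the groups overlapped. H2-Aa was at 298, 497, 114 and 701 against 518, 753, 7126 and 499, with Flt3 ITD/ITD MNC 2 also above the highest Flt3+/+ library. H2-Ab1 was at 228, 402, 99.7 and 392 in Flt3+/+ and at 447, 709, 3937 and 352 in Flt3 ITD/ITD MNCs. H2-Eb1 was at 83.1, 111, 22.0 and 151 in the former and at 113, 176, 1591 and 115 in the latter. In all 4 genes Flt3+/+ MNC 3 was the lowest library and Flt3 ITD/ITD MNC 3 the highest.

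The genes of the exchange factor separated the genotypes. H2-DMa was at 101, 110, 51.1 and 124 in Flt3+/+ MNCs and at 185, 167, 634 and 201 in Flt3 ITD/ITD MNCs. H2-DMb1 was at 47.6, 53.3, 25.7 and 36.1 in Flt3+/+ MNCs and at 90.6, 123, 312 and 58.2 in Flt3 ITD/ITD MNCs. For both genes the lowest Flt3 ITD/ITD library was above the highest Flt3+/+ library (2-sided exact permutation test on RPKM, p = 0.0286, the smallest that 4 against 4 can give). These were 2 of 7 members without overlap, against 6.71% of the 13926 genes tested, 5.72% in this direction. Leaving out a library cannot make separate groups overlap, so both genes necessarily stayed apart without Flt3 ITD/ITD MNC 3, where 8.88% of genes did not overlap. Without Flt3+/+ MNC 4, the highest of its group for Cd74, H2-Aa, H2-Eb1, H2-DMa and Ciita, 6 of 7 members did not overlap, against 9.13% of genes, and without Flt3 ITD/ITD MNC 4, 4 of 7 did not, against 8.91%. Ciita was at 1.04, 0.38, 0.26 and 1.34 against 1.56, 3.31, 10 and 1.15, with only Flt3 ITD/ITD MNC 4 inside the Flt3+/+ range (exact p = 0.0571). Exact p were 0.143 for Cd74, 0.114 for H2-Aa, 0.0857 for H2-Ab1 and 0.143 for H2-Eb1. In all, 32 such tests were computed over the 3 populations, and they are not adjusted for their number.

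Across all genes, 0.0144% were called between the genotypes in MNCs, and 1447 genes had an unadjusted p under 0.05. The log2 fold changes were 1.69 ± 0.48 for H2-DMb1 (edgeR adjusted p = 0.397), 1.44 ± 0.47 for H2-DMa (adjusted p = 0.415), 2.16 ± 0.71 for Ciita (adjusted p = 0.415), 2.12 ± 0.80 for H2-Ab1, 2.12 ± 0.91 for Cd74, 2.28 ± 0.96 for H2-Aa and 2.26 ± 0.96 for H2-Eb1 (adjusted p = 0.429 to 0.463). Their median was 2.12, against -0.01 over all genes tested. Without Flt3 ITD/ITD MNC 3 the median was 0.67, with 0.997 ± 0.29 for H2-DMb1, 0.74 ± 0.27 for H2-DMa, 1.17 ± 0.54 for Ciita and 0.29 ± 0.46 for Cd74, and adjusted p of 0.724 and above. DESeq2 called H2-DMb1 (adjusted p = 0.0298), Ciita (adjusted p = 0.0650) and H2-DMa (adjusted p = 0.0782), where it called 1.46% of genes, and gave no p for Cd74, H2-Aa and H2-Eb1. The edgeR exact test called H2-DMb1 (adjusted p = 0.0660), where it called 1.06%. Over all alternatives, the adjusted p of H2-DMb1 ranged from 0.0298 to 1.0.

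**Figure D3:**
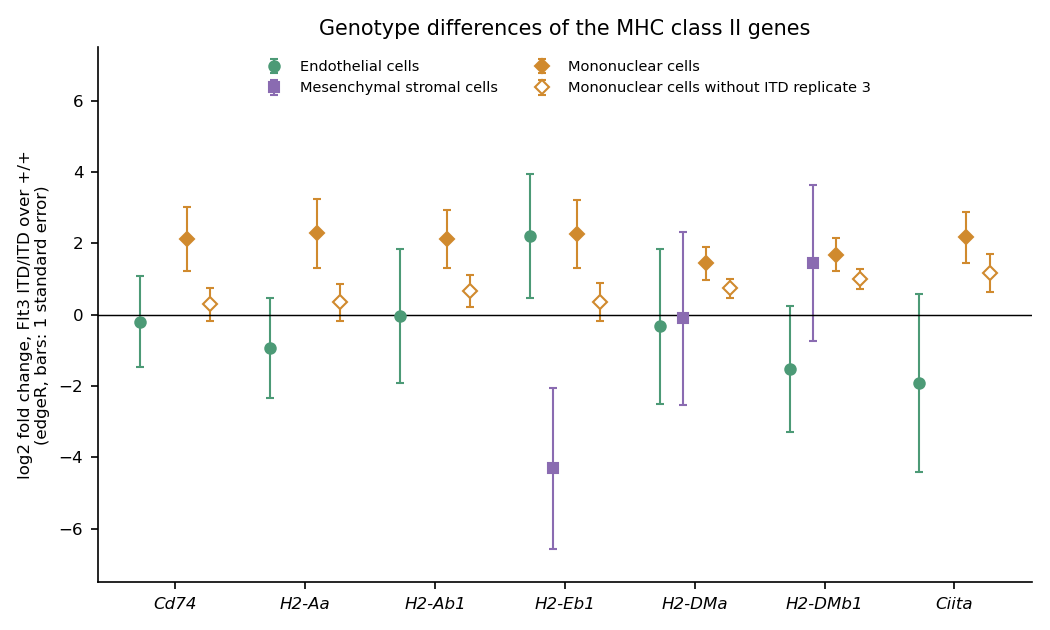
log2 fold changes of Flt3 ITD/ITD over Flt3+/+ from edgeR for each member (points, with bars of 1 SE) in ECs, MSCs and MNCs, and in MNCs without Flt3 ITD/ITD replicate 3 (open diamonds). MSC points are left out for members at 3 counts or fewer in all Flt3+/+ MSC libraries. MNC points lie between 1.44 and 2.28 and fall to between 0.29 and 1.17 without that library, while EC and MSC points have bars that reach or cross 0, except H2-Eb1.

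Flt3 ITD/ITD MNC 3 was the library in which the pathway stood out. Cd74 was its most abundant gene, with 499571 of 19959084 counts (2.50%, 95% Wilson interval 2.50% to 2.51%, for counting error only), and the 7 members together took 4.01% of its counts, against 0.101% to 0.473% in the other 7 MNC libraries. Relative to the median of those 7 libraries it was 12.2-fold higher for Cd74, 14.3-fold for H2-Aa, 10.04-fold for H2-Ab1, 14.0-fold for H2-Eb1, 5.13-fold for H2-DMa, 5.85-fold for H2-DMb1 and 8.70-fold for Ciita. Of 14104 genes, 17 were at least 4-fold above all other MNC libraries in it, including the 4 members Cd74, H2-Aa, H2-Ab1 and H2-Eb1. In the other MNC libraries 1 to 10 genes stood apart in this way.

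Genes of other cell types moved with it, in part. Chosen after their values were seen, Cd209a, a lectin gene of monocyte-derived and conventional dendritic cells, was at 1997 in this library and at most at 272 in the others, and Clec10a, a lectin gene of the same cells and of macrophages, at 214 against at most 31.3. Zbtb46, a transcription factor gene of conventional dendritic cells, was at 1.5 against at most 0.40, and Siglech, a gene of plasmacytoid dendritic cells, was at 35.0, within the range of the others. The 14 dendritic cell genes summed to 2570.0 RPKM in Flt3 ITD/ITD MNC 3, to 446 to 774 in the other Flt3 ITD/ITD MNCs and to 188 to 449 in Flt3+/+ MNCs. Most of that sum was Cd209a, without which it was 573, against 124 to 502 in the other 7 MNC libraries. Of the 14, 7 were higher in this library than in all others, and 7, among them Xcr1 (1.9), Irf8 (53.5) and Ccr7 (2.39), lay within their range. The 17 B cell genes summed to 421 in this library, the lowest of the 8, against 1002 to 1952 in Flt3+/+ MNCs and 831 to 1210 in the other Flt3 ITD/ITD MNCs. Cd79a (30.6) was likewise lowest there, and its 12 neutrophil genes had the lowest sum (44415, against 60461 to 201227). The 15 monocyte and macrophage genes summed to 18740, within the range of 13054 to 20726 in the others, although 7 of them were highest there. Among these were Mrc1, the mannose receptor gene (32.2, against at most 2.3), Cd163, a scavenger receptor gene of macrophages (11.7 against 4.11), Ccr2 (798 against 512) and Csf1r (73.6 against 52.3). The 7 erythroid genes summed to 61.65, 24627, 95311 and 86221 in Flt3+/+ MNCs and to 7332, 14190.5, 1444 and 5796 in Flt3 ITD/ITD MNCs. All 7 were on the lower side in Flt3 ITD/ITD MNCs (median log2 fold change -2.87, none called), and Flt3+/+ MNC 3, the lowest library for all 7 members, had the highest erythroid sum. Flt3+/+ MNC 4, with the next highest erythroid sum, had the highest Cd74 of its group (2140). Flt3+/+ MNC 1, with the lowest erythroid sum, had less Cd74 (844). The part of erythroid cells in the class II values was not tested. Whether the class II values rested on the number of such cells among the 200 sampled was not tested.

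**Figure D4:**
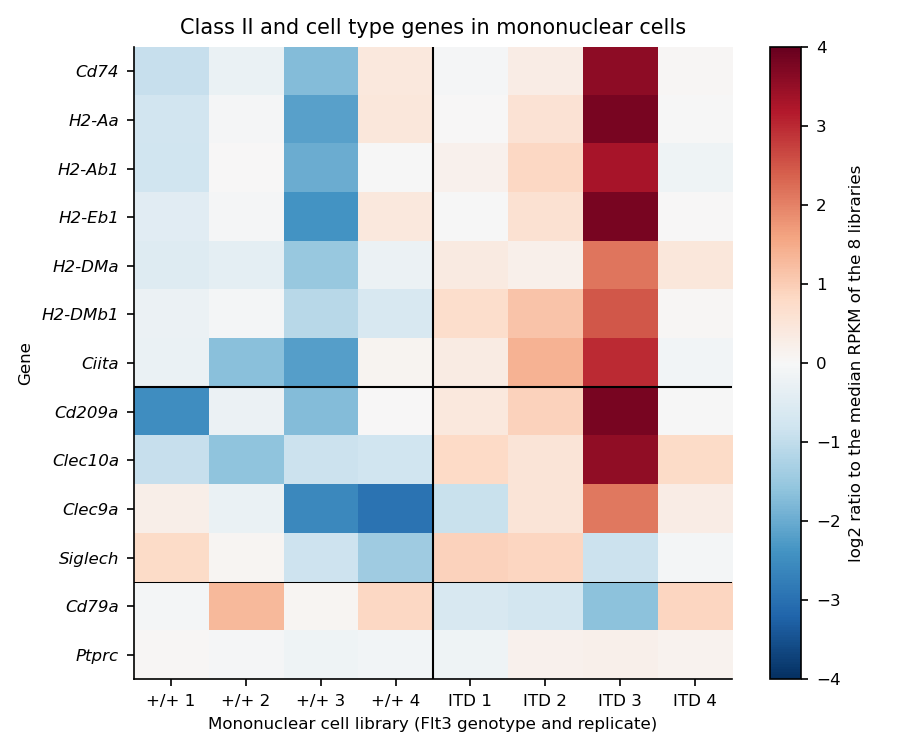
log2 ratio of the RPKM in each MNC library to the median of the 8 MNC libraries, for the 7 members and for genes of dendritic cells (Cd209a, Clec10a, Clec9a, Siglech), B cells (Cd79a) and leukocytes in general (Ptprc). Flt3 ITD/ITD MNC 3 is highest for all 7 members, Cd209a, Clec10a, Clec9a and, narrowly, Ptprc (161 against at most 157), and lowest for Cd79a. Flt3+/+ MNC 3 is the lowest of the 8 for all 7 members.

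Replicates 1 and 2 of the MNCs differed from replicates 3 and 4 in the immediate early gene Fos (Flt3+/+ 323, 239, 10.4 and 8.06, Flt3 ITD/ITD 317, 142, 15.6 and 4.24), so the genotypes were also compared within each pair of replicates. The mean log2(RPKM + 1) of Flt3 ITD/ITD MNCs exceeded that of Flt3+/+ MNCs in both, by 0.71 and 2.45 for Cd74, 0.70 and 2.73 for H2-Aa, 0.89 and 2.57 for H2-Ab1, and 0.55 and 2.86 for H2-Eb1. The differences were 0.73 and 2.15 for H2-DMa, 1.05 and 2.11 for H2-DMb1, and 0.99 and 1.5 for Ciita. The larger values came from the pair that contains Flt3 ITD/ITD MNC 3. With 2 libraries per genotype in each pair no test was made.

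The genotype effect on the members was not shown to differ between populations. In a fit of all 28 libraries, no member passed for the difference between the effects in ECs and MNCs, in MSCs and MNCs, or in ECs and MSCs, where 0.0118%, 0.00592% and 0.379% of genes passed an adjusted p of 0.1. The lowest adjusted p of a member was 0.160 (Cd74 and H2-Aa, ECs against MSCs), and both are at 0 in Flt3+/+ MSCs. DESeq2 passed no member, 1 member and 2 members in these comparisons, out of 2.12%, 1.59% and 3.95% of genes.

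The other class II genes behaved in part like the members. H2-DMb2, a near copy of H2-DMb1, was at 34.4, 37.4, 20.3 and 22.9 in Flt3+/+ MNCs and at 50.4, 59.9, 207 and 39.3 in Flt3 ITD/ITD MNCs, without overlap (exact p = 0.0286). Of the 51-base stretches of H2-DMb1, 26.8% also occur in H2-DMb2, and of those of H2-DMb2, 34.5% occur in another gene, mostly H2-DMb1. The authors kept only uniquely mapped reads, so both values are uncertain. H2-Oa was at 7.14, 10.3, 11.6 and 7.30 against 17.3, 7.87, 61.5 and 13.7 in MNCs. H2-Ob, its partner in H2-O, was at 11.4, 13.4, 6.92 and 15.8 against 4.32, 5.03, 57.4 and 14.4. For H2-Ob 2 Flt3 ITD/ITD libraries thus lay below all Flt3+/+ libraries and 1 far above, and for neither gene were the groups separate.

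H2-Ob was the other class II gene seen at high level in single EC libraries. It was at 1.33, 1.10, 0.050, 0 and 0 in Flt3+/+ ECs and at 0, 14.5, 16.7, 0.040 and 0.27 in Flt3 ITD/ITD ECs. Of the 2 high libraries, Flt3 ITD/ITD EC 2 had the lowest Cd74 and H2-Ab1 of its genotype and Flt3 ITD/ITD EC 3 the lowest H2-Aa. Of the 4 genes H2-Ob, H2-Oa, H2-DMb2 and H2-Eb2, 3 were called lower in ECs than in MNCs, 4 lower in MSCs than in MNCs and 1, H2-Ob, higher in ECs than in MSCs (log2 fold change 8.91 ± 1.57). None was called between genotypes. H2-Eb2, whose product has no settled function, did not exceed a mean of 0.455 in any group.

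The lists of other genes of the pathway are read beside all genes tested, of which 23% passed as higher and 21.9% as lower in ECs than in MNCs, 22.2% and 22% in MSCs than in MNCs, and 16.1% and 16.5% in ECs than in MSCs. Of 15 regulator genes, 1 was higher and 4 were lower in ECs than in MNCs, 1 higher and 6 lower in MSCs than in MNCs, and 3 higher and 2 lower in ECs than in MSCs. Nfyb, a subunit gene of the Y box factor NF-Y, averaged 34.01 ± 12.7 (SD, n = 10) over EC, 14.4 ± 4.88 (n = 10) over MSC and 35.5 ± 9.87 (n = 8) over MNC libraries. It differed between ECs and MNCs by -0.17 ± 0.27 (adjusted p = 0.635) and was higher in ECs than in MSCs by 1.01 ± 0.26 on the log2 scale (adjusted p = 0.00377). Irf8, a factor of dendritic cell and B cell development, had means of 3.47 ± 2.81 (ECs), 0.434 ± 0.714 (MSCs) and 63.0 ± 31.1 (MNCs) and was called lower in ECs (-4.24 ± 0.94) and MSCs (-7.03 ± 1.07) than in MNCs.

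Of 21 genes of the interferon gamma pathway, 12 were higher and 1 was lower in ECs than in MNCs, and 14 were higher and none lower in ECs than in MSCs, while MSCs had 5 higher and 9 lower than MNCs. Iigp1, an interferon-induced GTPase gene, had means of 628 ± 387 (ECs), 15.8 ± 17.7 (MSCs) and 2.43 ± 1.64 (MNCs) and was higher in ECs than in MNCs by 7.81 ± 1.02 on the log2 scale (adjusted p = 7.36e-07). Irf1, which activates the promoter of Ciita that responds to interferon gamma, had means of 292 ± 164 (ECs), 116 ± 63.2 (MSCs) and 45.6 ± 9.50 (MNCs) and was likewise higher in ECs (2.49 ± 0.36). Both were well above 0 in all 10 EC libraries, Flt3+/+ EC 5 included (lowest EC values 187 and 47.4). Ifng itself, chosen after its values were seen, was at 0 counts in all ECs and MSCs. In MNCs it had counts in 3 of 4 Flt3+/+ libraries (mean 1.995) and in 1 of 4 Flt3 ITD/ITD libraries (mean 0.45). Between genotypes 0 of the 21 were called in any population, and the median log2 fold change of those tested was 0.64 (ECs), 0.62 (MSCs) and 0.12 (MNCs).

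Of 14 endosomal genes that prepare peptides and trim the invariant chain, 3 were higher and 7 lower in ECs than in MNCs, 2 higher and 5 lower in MSCs than in MNCs, and 1 higher and 4 lower in ECs than in MSCs. Ctsl, a lysosomal protease gene, averaged 408 ± 86.8 (ECs), 597 ± 75.95 (MSCs) and 32.3 ± 14.3 (MNCs) and was higher in both stromal populations than in MNCs (3.56 ± 0.22 and 4.35 ± 0.23 on the log2 scale). Ctsb, another such protease gene, was at 120 ± 29.4, 332 ± 66.4 and 295 ± 49.4, and was lower in ECs than in MNCs (-1.45 ± 0.16). Ctss, the protease best known for trimming the invariant chain in dendritic cells and B cells and chosen here after its values were seen, had means of 0.07, 5.16 and 694.

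Of 8 genes for costimulatory ligands and receptors, 2 were higher and 5 lower in ECs than in MNCs, 1 higher and 6 lower in MSCs than in MNCs, and 2 higher and 1 lower in ECs than in MSCs. Tnfsf9, the ligand of 4-1BB, averaged 84.0 ± 94.2 (ECs), 128 ± 77.5 (MSCs) and 6.20 ± 6.12 (MNCs) and was higher in both stromal populations (3.71 ± 1.02 and 4.63 ± 1.06 on the log2 scale). Icosl, the ligand of ICOS, was at 4.11 ± 3.58, 4.63 ± 5.38 and 13.6 ± 8.19 and was lower in both (-1.92 ± 0.63 and -1.33 ± 0.62). None of the regulators, loading genes or costimulatory genes was called between genotypes in any population. In MNCs their median log2 fold changes were -0.06, 0.23 and 0.84, beside 2.12 for the members, and 12 of 14 dendritic cell genes and 1 of 16 B cell genes tested were on the higher side in Flt3 ITD/ITD MNCs, with none called.

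The genes whose pattern over all 28 libraries was most like the mean of the members, by the Pearson correlation of log2(RPKM + 1) among the 13721 genes whose mean RPKM reached 1, were Gm1966 (r = 0.940), Mx1 (0.926), Aim2 (0.919), Cnr2 (0.917) and AI467606 (0.912). The 3 populations form separate clusters of points, and these values largely restate that a gene was highest in MNCs and lowest in MSCs. With a pseudocount of 0.1 only Gm1966 stayed among the first 5. Over the 8 MNC libraries and 12029 genes they were Dapk1 (0.992), Wdr34 (0.961), Bend4 (0.960), Gramd3 (0.958) and Mgl2 (0.955). All 5 were highest in Flt3 ITD/ITD MNC 3, on which their likeness rests. Mgl2, a lectin gene of dendritic cells and macrophages, was at 138 there and at most at 19.3 in the others.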

How the data were processed

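Reads were single-end and 51 bases long, from SMARTer cDNA. According to the study's methods and the submitters' processing notes, the authors aligned them with Bowtie to UCSC transcripts of mm10, discarded reads that were not uniquely mapped and quantified genes with RSEM. The tool versions are not given in the sources used here, and whether counting used strand is not stated (H2-DMa overlaps Brd2, Ciita overlaps Dexi and H2-Eb1 has the antisense gene Gm20513). The deposited table holds estimated read counts as whole numbers and RPKM per gene and library. No column lacked a sample and no libraries were identical.

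Counts were tested with the quasi-likelihood test of edgeR 4.0.16 (R 4.3.3, limma 3.58.1) after TMM scaling and filterByExpr, with Benjamini-Hochberg adjustment over all genes tested. Genotypes were compared within each population, and populations in a fit of 28 libraries in 6 groups. A call needed an adjusted p below 0.1 and, with 0.01 added to both mean RPKM, at least a doubling or halving between them (a log2 ratio of 1). Members removed by the filter were tested without it. Single RPKM values were compared with exact permutation tests (scipy 1.17.1). Alternatives were DESeq2 1.42.0, the edgeR exact test, other scaling, no filter, a replicate block and leaving libraries out. The scripts were tested on simulated data. Total counts of 6377013 to 33880743 put 3 counts at 0.0886 to 0.470 CPM in ECs. Gene coordinates are from GENCODE vM21 (GRCm38).

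The members and lists were chosen with earlier results of these data known. Named genes are the 7 members, 4 other class II genes, of each pathway list the 2 with the highest mean RPKM and any called between genotypes (none was), and the 5 genes most like the members over 28 and over 8 libraries. Others are said to be chosen after their values were seen, as were the separations with single libraries left out.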

Additional observations from a re-analysis of the deposited data

Results flagged for a closer look

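Of 39 groups of member values tested, 16 had a library whose gap to its nearest neighbour exceeded the 95% critical value of Dixon's test. Chance gives about 1 in 20 groups of normally distributed values. That rate does not apply to groups with many zeros, and in 4 of the 16 all other libraries were at 0. The groups also share libraries.

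In MNCs, Flt3 ITD/ITD replicate 3 stood apart from the other 3 libraries of its group for Cd74 (18912.63 RPKM), H2-Aa (7125.9), H2-Ab1 (3937.29), H2-Eb1 (1590.98) and H2-DMa (633.95). H2-DMb1 and Ciita were also highest there without passing the critical value.

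In ECs, H2-Eb1 in Flt3+/+ replicate 3 (12.16 RPKM), Ciita in Flt3+/+ replicate 2 (4.54) and Ciita in Flt3 ITD/ITD replicate 1 (1.44) stood apart from their groups.

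In MSCs the libraries that stood apart were those that alone, or almost alone, held a gene. In Flt3+/+ MSCs they were replicate 5 for H2-DMa (4.34 RPKM), replicate 4 for H2-DMb1 (11.13) and replicate 2 for Ciita (0.01, a single count). In Flt3 ITD/ITD MSCs they were replicate 4 for Cd74 (28.45), H2-Aa (14.54) and Ciita (0.01, a single count), and replicate 3 for H2-Ab1 (8.33) and H2-DMa (3.91).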

How the results depend on the processing

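Calls of members between genotypes stayed at 0 of 7 in ECs, MSCs and MNCs under every alternative except 2: DESeq2 called 1 in MSCs and 3 in MNCs, and the edgeR exact test called 1 in MNCs. In MNCs the log2 fold changes kept their sign under all alternatives. In the population comparisons, calls ranged over 6 to 7 of 7 (ECs against MNCs), 7 to 7 (MSCs against MNCs) and 5 to 6 (ECs against MSCs) with single libraries left out. DESeq2 gave no p for Cd74 there and called 5, 6 and 4.

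Over all genes, calls between genotypes in ECs went from 1 to 0 with no filter on low counts, 0 with a replicate block and 361 with DESeq2. They went to 16 with the edgeR exact test, 275 with all 28 libraries in 1 fit and 0 without Flt3 ITD/ITD EC 2, the EC library with the most Ptprc counts. Calls with single libraries left out were 0 to 0. In MSCs they went from 4 to 2, 0, 193, 20, 18 and 0 (without Flt3 ITD/ITD MSC 5) under the same alternatives and to 0 to 2 with single libraries left out. In MNCs they went from 2 to 0 with the block, 327 with DESeq2, 148 with the exact test, 6 with all 28 libraries, and 0 to 1 with single libraries left out. For the difference of effects, DESeq2 gave 517, 388 and 961 genes against 2, 1 and 64, with 0, 1 and 2 members. Single libraries left out gave 2 to 12, 1 to 4 and 3 to 125, and ECs against MSCs gave 12 with no filter and 1 with the block. The cause of these differences was not tested.

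The replicate numbers recur in both genotypes, and correlations of same-numbered deviations from the group means were -0.083 to 0.063. The best match of a Flt3+/+ library bore its own number for EC 1 and 2, MSC 2 to 5 and MNC 2 and 4, and another number for the rest. Whether the numbers pair samples is not settled by these values. With the replicate block, EC log2 fold changes turned to 1.08 for Cd74, 0.22 for H2-Aa, 2.21 for H2-Ab1 and 0.12 for Ciita, and the block changed no call of a member. Without Flt3 ITD/ITD EC 2, Cd74 (0.11) and H2-Ab1 (0.27) turned in sign in ECs, and without Flt3 ITD/ITD MSC 5, H2-DMa (0.21) did in MSCs. Without Flt3+/+ MSC 5, which held 17 counts of Ptprc, H2-DMa was at 5.17. Single libraries left out gave, in ECs, -0.73 to 0.57 for Cd74, -1.84 to 0.36 for H2-Aa, -1.13 to 0.59 for H2-Ab1, -1.02 to 0.99 for H2-DMa and -7.60 to 5.10 for Ciita, in MSCs -8.17 to 5.17 for H2-DMa and -1.26 to 1.47 for Ciita, and, for ECs against MSCs, -0.18 to 4.14 for H2-DMb1. Of these, only H2-DMb1 without Flt3+/+ MSC 4 was called.

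The number of members whose MNC groups did not overlap ranged from 2 to 6 with single libraries left out, with 6 of 7 without Flt3+/+ MNC 4 (9.13% of genes) and 4 of 7 without Flt3 ITD/ITD MNC 4 (8.91%). In ECs and MSCs the input was 100 cells and the spread between libraries the largest, so differences of a few fold were below detection.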
